A study of Mus musculus with 12 samples.

Results

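Glutathione transferases were followed in wild-type and S1PR1 knockout macrophages from mouse tumours. S1PR1 is a G protein-coupled receptor that binds sphingosine-1-phosphate, a signalling lipid. The 10 genes, Gstt1, Gstt2, Gstt3, Gstm1, Gstm2, Gsto1, Gstp1, Mgst1, Mgst2 and Mgst3, were taken by gene symbol from the 21946 symbols on the array. They hold 18 probes. Of these, 16 probes of 9 genes were above background on at least 2 of the 8 arrays compared, and 14103 genes of the whole array passed the same filter. Mgst2 did not pass. The family was chosen because Gstt1 and Gstt3 were already known to be higher in the knockout on these arrays. Differences between knockout and wild type are therefore a description with no test, and Gstt1 and Gstt3 carry no test in any comparison, since every comparison uses the arrays that chose them.

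Macrophages with high CD11b were sorted from the tumours, and the RNA of pooled cells was amplified and hybridised to 12 Illumina BeadChip arrays. The group KO_PyMT is S1PR1 knockout and WT_PyMT is wild type, both from PyMT breast tumours of female mice. The group KO_MCA is S1PR1 knockout and WT_MCA is wild type, both from MCA fibrosarcomas of male mice. All are labelled C57BL/6, each group has 2 arrays, and the cells in which S1pr1 was deleted, the way it was deleted and the age of the mice are not stated in the labels. Whether the replicates are separate mice or pools is not stated either, so the spread between them may be technical. The other 4 arrays are 1 mixed control of PyMT macrophages, 2 mixed controls of MCA macrophages, and 1 repeat of the sample of KO_MCA replicate 1. That repeat was run on the BeadChip of the PyMT arrays. Tumour, sex and BeadChip cannot be told apart for the 8 group arrays, while both genotypes of a tumour share a BeadChip.

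Checks of the labels bear on what follows. All 10 macrophage markers, among them Itgam, the gene of CD11b, and Adgre1, were above background on all 8 arrays. The single S1pr1 probe gave raw signals of 76.0 to 88.2 and was above background on 0 of 12 arrays, so the arrays do not check the genotype. H2-Ea, a class II gene that is not transcribed in C57BL/6 mice, had log2 levels of 5.97 and 6.10 on the WT_PyMT arrays. On the other 10 it was at most 4.35, the level of WT_MCA replicate 2, which was also above background. The WT_PyMT levels go against the strain label of WT_PyMT or the reading of that probe, and which of them was not tested. The PyMT knockout differences below rest on the library pair labelled WT_PyMT. So do knockout differences over both tumours, and tumour differences in wild type and over both genotypes. The MCA knockout differences do not use that pair but use WT_MCA replicate 2. Between 9894 and 11809 genes were above background per array.

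Glutathione transferases join the tripeptide glutathione to electrophilic compounds, which makes these more soluble and ready for export. The cytosolic enzymes fall into classes that include theta (Gstt), mu (Gstm), pi (Gstp) and omega (Gsto), while the microsomal enzymes (Mgst) are membrane proteins of the MAPEG superfamily. Many of the genes answer to NRF2, a transcription factor of the oxidative stress response that binds antioxidant response elements, or to the aryl hydrocarbon receptor, which binds xenobiotic response elements. In macrophages the family is known for handling oxidised lipids and reactive aldehydes, and some MAPEG members make leukotriene C4.

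Promoters are shown for the theta genes that chose the family and for the other members whose promoter held an antioxidant response element core, because these elements are a known route to many genes of the family. RefSeq windows on GRCm38.p6, from 250 bases before to 50 bases after a gene's start, were found for 9 of the 10 members and numbered 12. The core was searched on both strands as TGACNNNGC, which 12.4% of 32851 windows of all genes hold, and then, added after the first search, as TGAGNNNGC, which 17.6% hold. Matches are in capitals and every sequence reads 5′ to 3′ on the gene's strand. Gstt1, at chr10:75797682-75797981 on the minus strand, held TGAGAGAGC at position -89 from its start. Gstt3, at chr10:75781373-75781672 on the minus strand, held neither form. Gstp1, at chr19:4037863-4038162 on the minus strand, held TGAGTCAGC at -74 and a match on the opposite strand at -9 that reads GCGTCCTCA here. Mgst1, at chr6:138140277-138140576 on the plus strand, held a match on the opposite strand at -56 that reads GCACGGTCA here.
Gstt1: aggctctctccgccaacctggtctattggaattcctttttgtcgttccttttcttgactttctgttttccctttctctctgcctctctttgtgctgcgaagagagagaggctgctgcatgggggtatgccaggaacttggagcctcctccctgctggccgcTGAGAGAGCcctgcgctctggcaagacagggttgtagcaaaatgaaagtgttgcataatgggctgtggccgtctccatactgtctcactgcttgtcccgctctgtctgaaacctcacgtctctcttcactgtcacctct
Gstt3: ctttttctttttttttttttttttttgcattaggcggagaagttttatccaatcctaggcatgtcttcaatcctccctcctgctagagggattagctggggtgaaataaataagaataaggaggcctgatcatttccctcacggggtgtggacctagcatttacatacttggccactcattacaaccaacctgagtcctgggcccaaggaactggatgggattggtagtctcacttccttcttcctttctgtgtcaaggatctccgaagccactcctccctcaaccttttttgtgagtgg
Gstp1: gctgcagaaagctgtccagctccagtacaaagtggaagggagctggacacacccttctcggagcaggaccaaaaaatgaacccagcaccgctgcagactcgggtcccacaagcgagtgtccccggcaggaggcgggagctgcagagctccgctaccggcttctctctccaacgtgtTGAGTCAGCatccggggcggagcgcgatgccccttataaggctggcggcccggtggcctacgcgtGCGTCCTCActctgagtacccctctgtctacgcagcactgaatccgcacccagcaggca
Mgst1: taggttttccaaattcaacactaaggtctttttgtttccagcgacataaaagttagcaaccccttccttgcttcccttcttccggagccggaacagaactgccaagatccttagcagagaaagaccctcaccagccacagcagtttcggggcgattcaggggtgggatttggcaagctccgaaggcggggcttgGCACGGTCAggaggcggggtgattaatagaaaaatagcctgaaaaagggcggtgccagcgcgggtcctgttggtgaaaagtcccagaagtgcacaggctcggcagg
In all, 3 of the 12 member windows held either form, against 27.8% of all windows. The core GCGTG of the xenobiotic response element stood in 4 of the 12 member windows, those of Mgst3, Gstm1 and Gstp1, against 32.4% of all windows. A match is a description of the letters, not a binding site.

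Levels are given as log2 of the background-corrected and quantile-normalized intensity, on a scale where a probe at background lies near 4. A probe is called above background on an array where its deposited detection p is under 0.05. Raw intensities of the members lay between 79.7 and 247.5, against array medians of at most 92.5. Gsto1, at 130.3 to 247.5, and the brightest Gstp1 probe, at 130.8 to 180.7, were above these medians on all 12 arrays. Several other member probes were below background on some arrays. Where a gene has several probes, the one with the highest mean signal stands for it, and for members the others are given beside it. Differences are log2 differences with their standard error (SE) from a limma fit over all 14103 genes. For the other probes of a gene, the same model was fitted over all 26748 kept probes.

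Gstt3, a theta-class enzyme, was the only member whose knockout and wild-type arrays did not overlap over both tumours on the brightest probe. Its levels were 5.24 and 5.99 in KO_PyMT, 4.33 and 4.10 in WT_PyMT, 5.63 and 5.81 in KO_MCA, and 5.24 and 4.45 in WT_MCA. All 4 knockout arrays were thus above all 4 wild-type arrays, but by a margin of only 0.0021 between the lowest knockout array, KO_PyMT replicate 1, and the highest wild-type array, WT_MCA replicate 1. The mean was 5.67 ± 0.32 (SD, n = 4) in knockout and 4.53 ± 0.49 (SD, n = 4) in wild type, a difference of 1.14 ± 0.25 (SE). The gap within a tumour was wider. In PyMT tumours both wild-type arrays were below background. Under the background correction used here, the knockout mean was 2.50-fold above a ceiling for the wild-type signal. That ceiling was, array by array, the lowest signal called above background or the probe's own signal where that was higher. The fitted difference in PyMT was 1.40 ± 0.35, and it ran from 0.44 to 1.77 over the other settings. In MCA tumours all 4 arrays were above background and the difference was 0.87 ± 0.35, which was 0.48 without WT_MCA replicate 2 and 1.27 without WT_MCA replicate 1.

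Gstt1, the theta-class neighbour of Gstt3 that in mice acts on small halogenated compounds, was higher in the knockout in MCA tumours. Its levels were 5.42 and 5.42 in KO_MCA and 4.42 and 4.17 in WT_MCA. The raw intensities behind them were 123.8 and 118.7 in KO_MCA and 92.9 and 87.2 in WT_MCA, where 1 of 2 arrays was above background. Both knockout arrays stood above both wild-type arrays, with a difference of 1.12 ± 0.19. In PyMT tumours the levels were 4.29 and 4.10 in the knockout and 4.10 and 4.06 in wild type. All 4 of these arrays were below background, so no fold is given, and the fitted difference was 0.12 ± 0.19. The Gstt1 signal therefore came from MCA arrays, and over both tumours the knockout and wild-type arrays overlapped, with a difference of 0.62 ± 0.22.

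The repeat array bears on the BeadChip directly. On it Gstt1 was at 5.05 and above background, against 5.42 for the same sample on the other BeadChip, a difference of -0.37, while all other arrays of that BeadChip read Gstt1 at 4.06 to 4.29. Gstt3 was at 5.49 on the repeat array against 5.63, a difference of -0.15. Over all genes the SD of the difference between these 2 arrays was 0.282. The mixed control of PyMT macrophages read Gstt1 at 4.12, below background, and Gstt3 at 6.16, above all 8 group arrays. The mixed controls of MCA macrophages read Gstt1 at 4.23 and 4.14, both below background, and Gstt3 at 4.77 and 5.30.

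**Figure D1:**
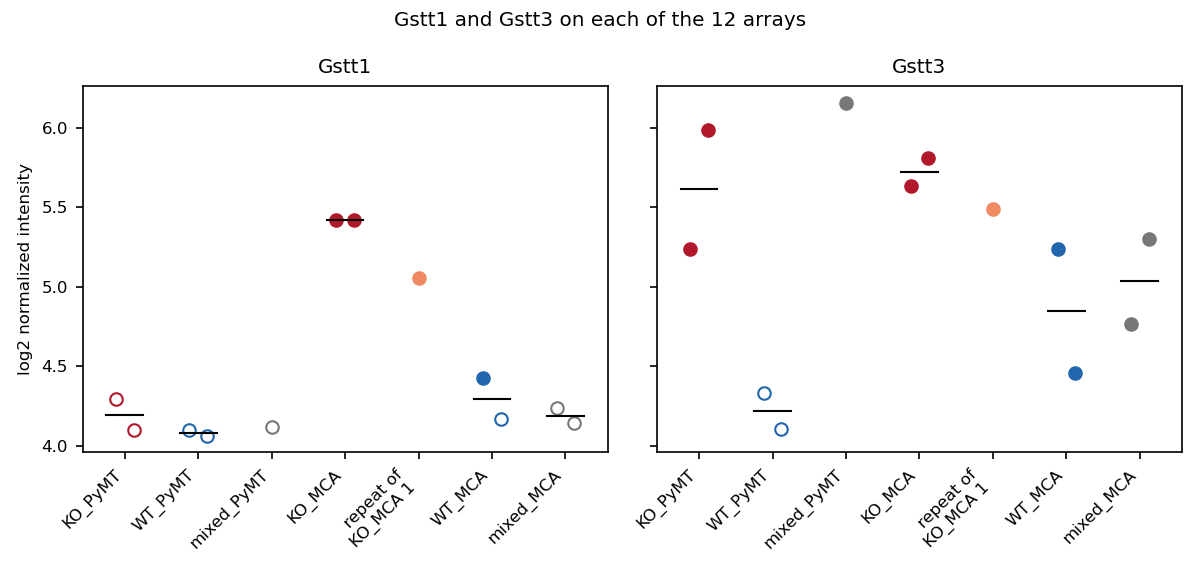
Log2 normalized intensity of Gstt1 (left) and Gstt3 (right) on each of the 12 arrays, by group. Filled points are above background, open points are not, and lines are means of groups with 2 arrays. Gstt1 was above background on both KO_MCA arrays, the repeat array and 1 WT_MCA array, and Gstt3 on all arrays but those of WT_PyMT.

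Gstt2, the third theta-class member, has probes that did not move together. The brightest probe, annotated to a cDNA clone without a gene ID in the array's table, read 4.15 and 5.34 in KO_PyMT, 5.35 and 6.21 in WT_PyMT, 5.53 and 5.87 in KO_MCA, and 5.16 and 4.96 in WT_MCA. Knockout arrays lay below wild type in PyMT and above it in MCA, with differences of -1.04 ± 0.45 and 0.64 ± 0.45. The PyMT value rests on KO_PyMT replicate 1, which was below background, and was -0.44 without it. The other Gstt2 probe was above background on 3 of 8 arrays and differed by -0.35 ± 0.22 in PyMT and by -0.15 ± 0.22 in MCA. The direction of Gstt2 in MCA was thus not shared by its probes.

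On chromosome 10 the order of genes in the GRCm38.p6 annotation is Ddt, Gstt3, Gstt1, Gstt4, Gstt2 and Mif. The probe of Gstt4 did not pass the filter. Ddt, which makes D-dopachrome tautomerase, differed by 0.65 ± 0.25 in PyMT and -0.29 ± 0.25 in MCA. Mif, the macrophage migration inhibitory factor, differed by 0.31 ± 0.26 and 0.17 ± 0.26. Over both tumours the 7 measured neighbours beyond the theta genes, from Ggt5 to Smarcb1, differed between knockout and wild type by -0.47 (Derl3) to 0.24 (Mif). The theta genes differed by 1.14 (Gstt3), 0.62 (Gstt1) and -0.20 (Gstt2), and Gstt3 and Gstt1 were chosen on this contrast. By tumour, Derl3 differed by -0.87 ± 0.26 in PyMT and -0.07 ± 0.26 in MCA, and Gstt1 by 0.12 ± 0.19 and 1.12 ± 0.19.

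Gsto1, the omega-class enzyme that removes glutathione from proteins and reduces dehydroascorbate, was higher in the knockout in PyMT tumours. Its levels were 7.47 and 7.14 in KO_PyMT, 6.20 and 6.11 in WT_PyMT, 6.62 and 5.92 in KO_MCA, and 6.40 and 6.47 in WT_MCA, all above background. In PyMT the mean was 7.31 ± 0.23 (SD, n = 2) against 6.15 ± 0.07 (SD, n = 2), a difference of 1.15 ± 0.27 that was 0.69 with no background correction. In MCA the arrays overlapped and the difference was -0.16 ± 0.27. The knockout difference in PyMT exceeded that in MCA by 1.31 ± 0.38, given as a description.

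Gstp1, the pi-class enzyme that also binds and restrains the stress kinase JNK, has 3 probes that were above background on all 8 arrays. The brightest read 6.54 and 6.59 in KO_PyMT, 6.22 and 6.22 in WT_PyMT, 6.43 and 6.55 in KO_MCA, and 6.44 and 6.34 in WT_MCA. Its difference was 0.35 ± 0.17 in PyMT, where the groups did not overlap, and 0.10 ± 0.17 in MCA, where they did. The second probe read 6.65 and 5.65 in KO_PyMT, 5.11 and 5.26 in WT_PyMT, 5.47 and 5.38 in KO_MCA, and 5.29 and 5.27 in WT_MCA. Here all 4 knockout arrays were above all 4 wild-type arrays, with differences of 0.97 ± 0.32 in PyMT and 0.14 ± 0.32 in MCA. The third probe differed by 0.12 ± 0.24 and 0.22 ± 0.24, with overlapping groups. Gstp1 has near-identical neighbours, Gstp2 and Gstp3, and the mu-class genes form a cluster of close paralogs, so how far their probes read each other is uncertain. Probe sequences were not analysed here.

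The mu-class members did not separate by genotype on their brightest probes. The brightest Gstm1 probe was above background on 6 of 8 arrays, ranged from 4.22 to 5.13 with a median of 4.71, and differed by -0.27 ± 0.34 in PyMT and -0.30 ± 0.34 in MCA. The other Gstm1 probe was above background on 2 of 8 arrays, 1 of them KO_PyMT replicate 1 at 5.44, and differed by 0.78 ± 0.36 in PyMT and 0.02 ± 0.36 in MCA. The brightest Gstm2 probe was above background on all 8 arrays, ranged from 4.45 to 5.87 with a median of 5.00, and differed by 0.42 ± 0.34 and 0.14 ± 0.34. A second Gstm2 probe was above background on 4 of 8 arrays and differed by 0.24 ± 0.24 and 0.22 ± 0.24, and the third, above background on 1 array, was not fitted. In all 4 of the brightest-probe comparisons of Gstm1 and Gstm2 the groups overlapped.

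Of the microsomal members, Mgst3, a glutathione transferase and peroxidase of membranes, showed the widest genotype gap. Its brightest probe read 5.64 and 5.23 in KO_PyMT, 4.47 and 4.26 in WT_PyMT, 5.66 and 5.45 in KO_MCA, and 5.56 and 5.10 in WT_MCA. The PyMT arrays did not overlap and differed by 1.07 ± 0.25, or 0.33 with no background correction, with 1 of 2 wild-type arrays above background, while the MCA arrays overlapped and differed by 0.22 ± 0.25. The other Mgst3 probe was below background on all 4 PyMT arrays and above it on all 4 MCA arrays, where it differed by -0.19 ± 0.20, so it gives no second reading of the PyMT gap. Mgst1, which protects membranes from lipid peroxidation, read 5.26 and 5.57 in KO_PyMT, 5.79 and 5.48 in WT_PyMT, 5.42 and 5.43 in KO_MCA, and 5.06 and 5.06 in WT_MCA on its brightest probe. It differed by -0.22 ± 0.20 in PyMT with overlap and by 0.36 ± 0.20 in MCA without it. Its other probe was above background on both WT_PyMT arrays and on none of the other 6. Mgst2, which can make leukotriene C4, was below background on all 8 group arrays, with raw intensities of 86.4 to 93.5, and was above it on 3 of the 12 arrays.

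**Figure D2:**
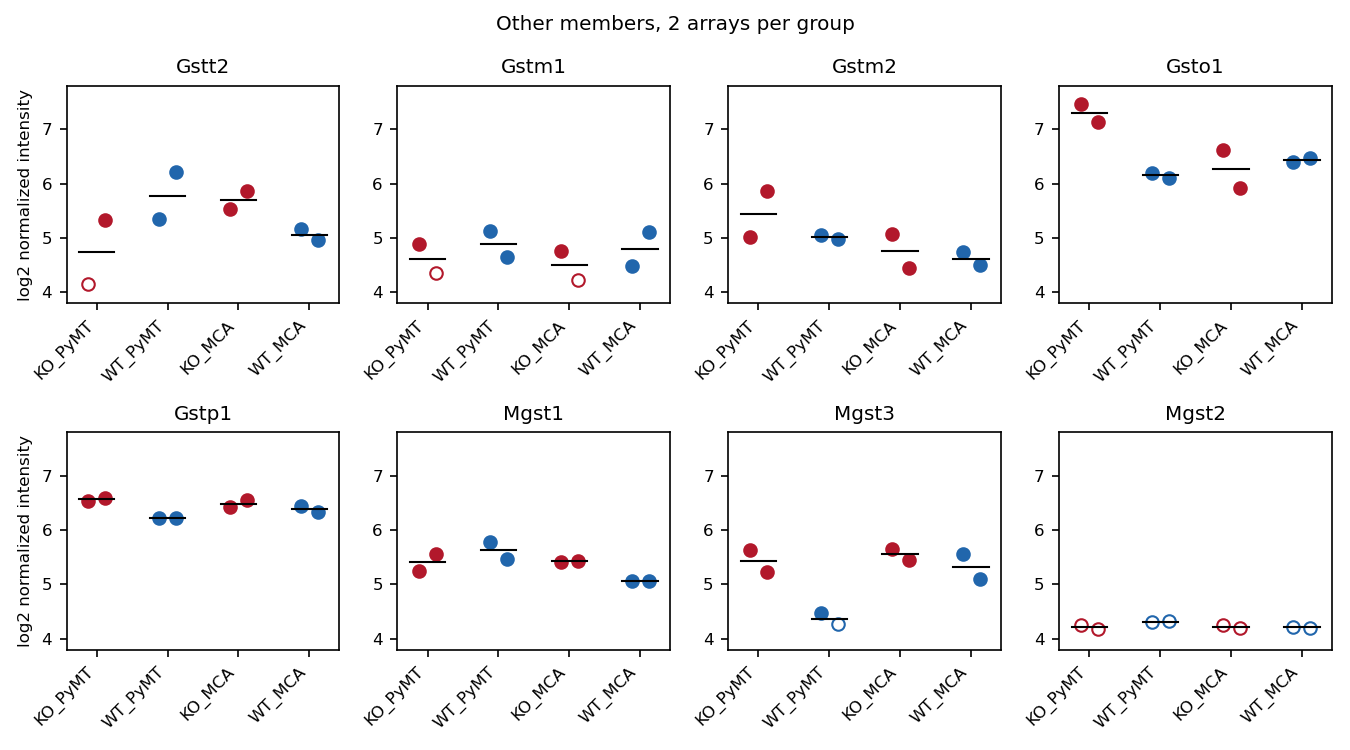
Log2 normalized intensity of the brightest probe of the 7 other measured members and of the single Mgst2 probe on the 8 group arrays, 2 per group. Filled points are above background, open points are not, and lines are group means. Gsto1, Gstp1 and Mgst3 separate by genotype in PyMT, and all 8 Mgst2 points are below background.

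Across the 9 measured members, the knockout mean was above the wild-type mean for 6 and below it for 3 in PyMT, with a median difference of 0.35. In MCA it was above for 7 and below for 2, with a median of 0.22. Over all 14103 genes the share above was 49.8% in PyMT and 49.9% in MCA, with medians of -0.00094 and -0.00045. Knockout arrays lay wholly above wild-type arrays in PyMT for Gstt1, Gstt3, Gsto1, Gstp1 and Mgst3, 5 of 9, where 17.2% of all genes did so. Gstt1 is counted there by a gap of 0.0011 between arrays that were all below background. They lay wholly below for Gstt2, 1 of 9, where 18.6% of all genes did so. In MCA they lay wholly above for Gstt1, Gstt2, Gstt3 and Mgst1, 4 of 9 against 15.8% of all genes, and wholly below for 0 of 9 against 15% of all genes. Over both tumours Gstt3 alone lay wholly above, 1 of 9 against 1.18% of all genes, and 0 of 9 lay wholly below against 1.23%. The family was chosen on this contrast, so nothing is read from these counts. In the limma fit 0 of 14103 genes (0%) passed an adjusted p of 0.05 for knockout against wild type in either tumour or over both, and 1531 genes in PyMT, 222 in MCA and 722 over both had an unadjusted p under 0.05.

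**Figure D3:**
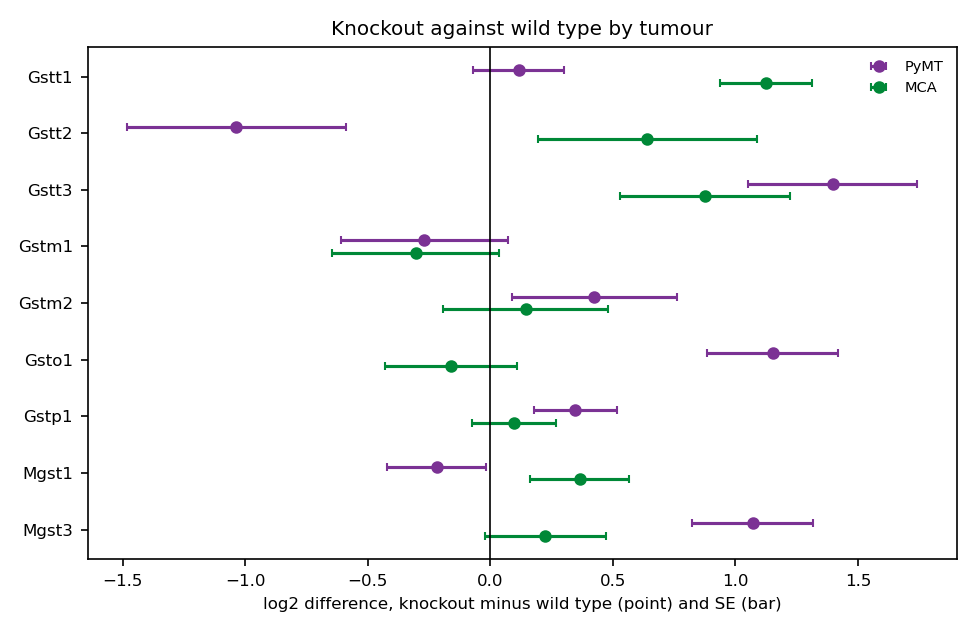
Log2 difference of knockout minus wild type in PyMT and in MCA for the brightest probe of the 9 measured members, with the SE of the fit over 8 arrays. Gstt3, Gsto1 and Mgst3 lie above 1 in PyMT, Gstt1 lies above 1 in MCA, and Gstt2, Gsto1 and Mgst1 each lie on opposite sides of 0 in the 2 tumours.

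**Figure D4:**
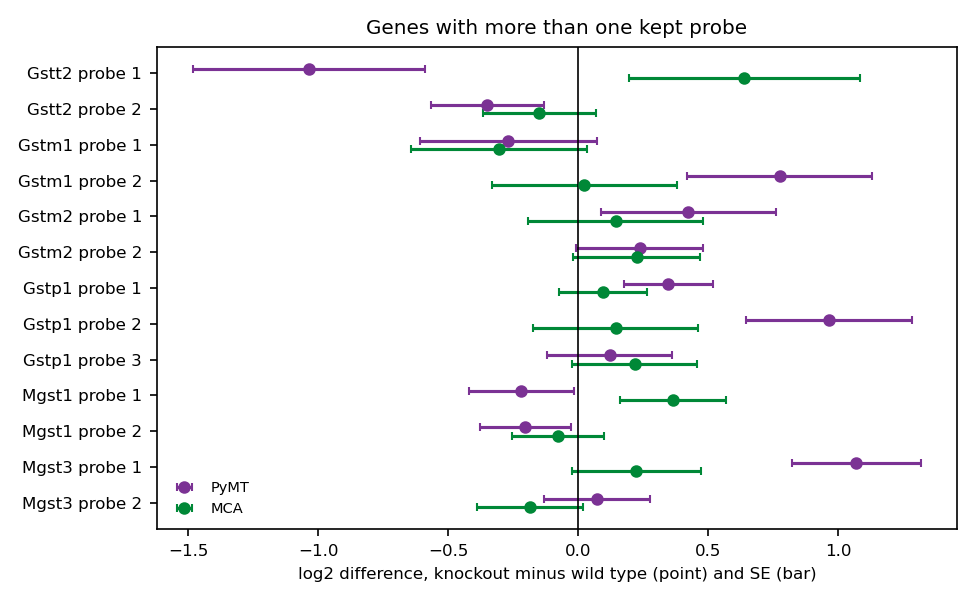
Log2 difference of knockout minus wild type in PyMT and in MCA for each kept probe of the 6 members that have more than one, with the SE. Probe 1 is the brightest. Probes of Gstt2, Gstm1, Gstp1 and Mgst3 differ in the size or the direction of the PyMT value.

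Of 10 T and NK cell markers 5 were measured. In PyMT 3 of the 5 were higher in knockout and 2 were lower, with a median difference of 0.39, and the summed linear level of the 5 was 177 to 238 in KO_PyMT, 106 to 130 in WT_PyMT, 96.8 to 100.3 in KO_MCA and 91.2 to 96.6 in WT_MCA. Lck, Cd8a, Cd3g, Ncr1 and Gzma did not pass the filter. Of 10 epithelial and mammary markers 6 were measured, with a summed level of 242 to 403 in KO_PyMT, 334 to 454 in WT_PyMT, 158 to 172 in KO_MCA and 167.3 to 167.8 in WT_MCA. Of 11 fibroblast markers 10 were measured, with a summed level of 1872 on WT_MCA replicate 2 and 223 to 439 on the other 7 arrays. Of 10 macrophage markers all were measured, and 8 were lower in knockout over both tumours, with a median of -0.13. In PyMT 6 of the 10 were lower and 4 higher, with a median of -0.07. In MCA 8 were lower and 2 higher, with a median of -0.07. Among the 10, Itgam, which encodes the CD11b of the sort, differed by -0.83 ± 0.24 in PyMT and -0.44 ± 0.24 in MCA. Its knockout arrays lay wholly below wild type in both, as for 18.6% of all genes in PyMT and 15% in MCA. The part of these markers in the Gstt3, Gsto1 and Mgst3 differences in PyMT, and in the Gstt1 and Gstt3 differences in MCA, was not tested. In pooled cells, fewer cells of a type and less RNA per cell cannot be told apart.

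The comparison of PyMT with MCA macrophages was not used to choose the family and was tested for the 7 measured members other than Gstt1 and Gstt3. None of the 7 passed an adjusted p of 0.05 in wild type, in knockout or over both genotypes, where the limma fit called 3 (0.0213%), 11 (0.078%) and 23 (0.163%) of 14103 genes. At an unadjusted p under 0.05 stood 2 of 7 members in wild type, Mgst1 and Mgst3, against 7.94% of all genes. In knockout it was 1 of 7, Gsto1, against 13.5%, and over both genotypes 2 of 7, Gstm2 and Mgst3, against 15.0%. Of all 9 measured members, the PyMT arrays lay wholly above the MCA arrays in wild type for Gstt2, Gstm2 and Mgst1, 3 of 9 against 20.3% of all genes, and wholly below for Gstt1, Gstt3, Gsto1, Gstp1 and Mgst3, 5 of 9 against 21.2%. In knockout they lay wholly above for Gsto1, 1 of 9 against 20.7%, and wholly below for Gstt1 and Gstt2, 2 of 9 against 24.4%. Over both genotypes 0 of 9 lay wholly above on the brightest probe, against 4.96%, and 0 of 9 wholly below, against 5.53%. These counts include Gstt1 and Gstt3, which carry no test, so nothing is read from the counts. In wild type Gstt1 was above background on 0 of 2 PyMT arrays and 1 of 2 MCA arrays. Values in wild type and over both genotypes use the WT_PyMT pair, whose H2-Ea levels go against its strain label or that probe's reading. Wild-type macrophages had less Mgst3 signal in PyMT than in MCA by -0.96 ± 0.25 (limma adjusted p = 0.488), with both WT_PyMT arrays below both WT_MCA arrays, and by -0.29 with no background correction. Mgst1 differed the other way in wild type, by 0.57 ± 0.20 (limma adjusted p = 0.583), or 0.21 with no background correction. The other probes of Mgst3 and Mgst1 differed in wild type by -0.55 ± 0.20 and 0.41 ± 0.18. There the Mgst3 probe was above background on 0 of 2 PyMT and 2 of 2 MCA arrays. The Mgst1 probe was above it on 2 of 2 PyMT and 0 of 2 MCA arrays. In knockout macrophages Gsto1 was higher in PyMT by 1.03 ± 0.27 (limma adjusted p = 0.194), and both KO_PyMT arrays lay above both KO_MCA arrays. Against the repeat array, which shares the BeadChip of the PyMT arrays and read Gsto1 at 6.64, both KO_PyMT arrays were also higher, at 7.47 and 7.14. That array repeats only KO_MCA replicate 1, at 6.62, and not replicate 2, at 5.92. Tumour, sex and BeadChip therefore still cannot be told apart for Gsto1. Over both genotypes Gstm2 differed by 0.55 ± 0.23 (limma adjusted p = 0.317) and Mgst3 by -0.54 ± 0.22 (limma adjusted p = 0.314). The other kept Gstm2 probe went the other way, by -0.19 ± 0.16, so the direction of Gstm2 was not shared by its probes. The other Mgst3 and Mgst1 probes differed over both genotypes by -0.42 ± 0.14 and 0.35 ± 0.12, each without overlap. Of all genes 5.53% lay wholly below and 4.96% wholly above. The Mgst3 probe was above background on 0 of 4 PyMT and 4 of 4 MCA arrays. The Mgst1 probe was above it on 2 of 4 PyMT arrays, both wild type, and 0 of 4 MCA arrays. Each thus passed the filter only through the tumour where it was higher, so nothing is read from their direction. Marker lists also differed between the tumours. Over both genotypes 8 of 10 macrophage markers were lower in PyMT, and Itgam differed by -0.85 ± 0.18 (limma adjusted p = 0.125). Of 10 measured fibroblast markers 8 were lower in PyMT over both genotypes, with a median of -0.46, 10 in wild type and 6 in knockout. In wild type their summed level was 1872 on WT_MCA replicate 2. On WT_MCA replicate 1 it was 283, within the 223 to 337 of WT_PyMT. All 6 measured epithelial and mammary markers, 7 of 7 dendritic cell markers and 5 of 5 T and NK cell markers were higher in PyMT over both genotypes. Of these, 2, 2 to 3 and 1 were above background on WT_MCA arrays, and 1 to 2, 4 to 6 and 2 to 3 on KO_MCA arrays. On WT_PyMT arrays it was 5, 5 to 6 and 2 to 4, and on KO_PyMT arrays 3 to 4, 5 to 6 and 3 to 4. The filter keeps genes through the arrays where they are high, so nothing is read from these marker counts. Within knockout 4 of the 7 dendritic cell markers were higher. Of all these markers Csn3, a milk casein, was called, at 1.57 ± 0.17 higher in PyMT (limma adjusted p = 0.0202). Csn3 was above background on 4 of 8 arrays. Its levels were 5.28 to 5.95 in PyMT and 4.09 to 4.22, near background, in MCA. It thus passed the filter through the PyMT arrays, and nothing is read from the size of its difference. Their part in the members' differences between tumours was not tested.

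**Figure D5:**
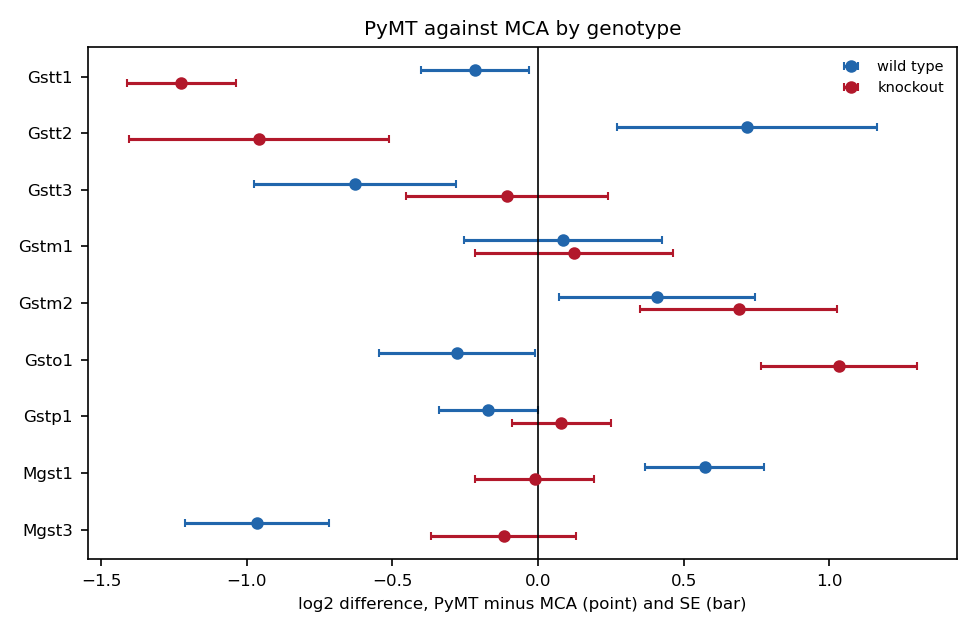
Log2 difference of PyMT minus MCA within wild type and within knockout for the brightest probe of the 9 measured members, with the SE of the fit over 8 arrays. Gsto1 lies near 1 in knockout, Mgst3 near -1 in wild type and Gstt1 below -1 in knockout. Tumour, sex and BeadChip cannot be told apart in these values. The wild-type values use the WT_PyMT pair, whose H2-Ea levels go against its strain label or that probe's reading.

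Members also varied together to different degrees. After the mean of each tumour was taken off, the Pearson r over the 8 arrays was 0.92 between Gstt3 and Gstp1, 0.87 between Gsto1 and Mgst3, 0.87 between Gstp1 and Mgst3, 0.79 between Gstt3 and Mgst3, and 0.56 between Gstt1 and Gstt3. Gstt2 and Gsto1 ran against each other, with an r of -0.79. These are 6 of 36 pairs, the arrays share their genotype groups, and the values are a description. By the same measure the 3 genes most like Gstt3 among 11543 were Cyb561d2 (r = 0.99), Snora65 (r = 0.97) and Plaa (r = 0.97). The 3 most like Gstt1 among 11544 were 2210408F11Rik, Ppargc1b and Rufy4, each with an r of 0.97. Gstt1 itself was above background on 3 of the 8 arrays. These are the highest values of a search with genotype left in, so nothing is read from them.

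The wider glutathione pathway was followed in 5 lists of 80 genes, of which 64 were measured. None of the 64 passed an adjusted p of 0.05 in limma in any comparison. Unadjusted p under 0.05 stood for 9 of 64 (14.1%) over both genotypes for PyMT against MCA, for 8 of 64 (12.5%) for knockout against wild type in PyMT and for 4 of 64 (6.25%) in MCA. Over all genes these shares were 15.0%, 10.9% and 1.57%. Knockout means were above wild type for 38 of 64 in PyMT with a median of 0.13, and for 34 of 64 in MCA with a median of 0.01.

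Of the other transferases and MAPEG proteins 14 of 19 were measured, and 10 of the 14 were higher in PyMT over both genotypes, with a median difference of 0.12. Hpgds, which makes prostaglandin D2 and belongs to the sigma class, was higher in PyMT by 0.61 ± 0.12 (limma adjusted p = 0.111) on all 4 arrays. It was lower in knockout in both tumours, by -0.27 ± 0.17 in PyMT and -0.43 ± 0.17 in MCA. Its other kept probe differed by 0.75 ± 0.17 between tumours and, between genotypes, by -0.05 ± 0.24 in PyMT and -0.32 ± 0.24 in MCA. Gstm5 was higher in PyMT by 0.26 ± 0.15 (limma adjusted p = 0.446). Alox5ap, which hands arachidonic acid to the leukotriene pathway, was lower in knockout by -0.27 ± 0.22 in PyMT and -0.34 ± 0.22 in MCA, and on its other kept probe by -0.02 ± 0.34 and -0.56 ± 0.34.

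Glutathione synthesis and breakdown had 10 of 15 genes measured, 6 of them higher in PyMT over both genotypes, with a median difference of 0.06. Gclm, a subunit of the enzyme that starts glutathione synthesis, differed by 0.42 ± 0.34 (limma adjusted p = 0.598), and Slc7a11, the cystine importer, by 0.29 ± 0.60 (limma adjusted p = 0.853). The 4 other kept Slc7a11 probes ran from -0.22 to 0.41, with 2 in each direction. Between genotypes, Anpep, an aminopeptidase, differed by 0.35 ± 0.33 in PyMT and 0.90 ± 0.33 in MCA. Ggct, which breaks down gamma-glutamyl dipeptides, differed by -0.36 ± 0.39 and -0.54 ± 0.39, and its other kept probes by -0.15 ± 0.24 and -0.12 ± 0.26 in PyMT and by -0.28 ± 0.24 and -0.17 ± 0.26 in MCA. Export of conjugates had 4 of 7 genes measured, all 4 higher in PyMT, with a median of 0.19. The transporters Abcc3 and Abcc5 differed between tumours by 0.43 ± 0.17 (limma adjusted p = 0.287) and 0.26 ± 0.25 (limma adjusted p = 0.651). Between genotypes Abcc3 differed by -0.04 ± 0.21 in PyMT and -0.53 ± 0.21 in MCA, and Abcc5 by 0.13 ± 0.37 and 0.09 ± 0.37. The other kept Abcc5 probe differed by 0.60 ± 0.33 in PyMT and -0.64 ± 0.33 in MCA.

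Glutathione-dependent reduction had 12 of 15 genes measured, and 9 of the 12 were lower in PyMT over both genotypes, with a median of -0.25. The glutaredoxins Glrx3 and Glrx2 differed by -0.70 ± 0.29 (limma adjusted p = 0.319) and -0.49 ± 0.20 (limma adjusted p = 0.308). The other kept probes did not share these values, at 0.14 ± 0.17 and 0.31 ± 0.19 for Glrx3 and -0.02 ± 0.16 for Glrx2. Between genotypes, Gpx3, a secreted glutathione peroxidase, differed by 1.37 ± 0.47 in PyMT and 0.16 ± 0.47 in MCA. Glo1, the glyoxalase that clears methylglyoxal, differed by 1.25 ± 0.39 in PyMT and 0.01 ± 0.39 in MCA. For both, the KO_PyMT arrays were above the WT_PyMT arrays and the MCA groups overlapped.

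All 24 NRF2 regulators and targets were measured, and 16 of the 24 were higher in knockout in PyMT, with a median of 0.13. Keap1, which holds NRF2 down, was lower in KO_PyMT, with a mean of 6.01 against 7.61 in WT_PyMT and a difference of -1.60 ± 0.40, while in MCA the difference was 0.07 ± 0.40. Its 3 other kept probes differed in PyMT by -1.34 ± 0.33, -1.04 ± 0.45 and 0.34 ± 0.39, so 1 of 4 probes lay in the other direction. Hmox1, the heme oxygenase that NRF2 induces, differed by 0.96 ± 0.34 in PyMT and 0.21 ± 0.34 in MCA. Between tumours Bach1, a repressor of NRF2 targets, differed by 0.72 ± 0.23 (limma adjusted p = 0.216) on its brightest probe and -0.13 ± 0.12 on the other, and Mafg, a partner of NRF2, by 0.60 ± 0.27 (limma adjusted p = 0.353).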

How the data were processed

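RNA of sorted macrophages from 12 samples was measured on single-colour Illumina BeadChip arrays. Per the file headers, each probe's deposited intensity is a mean over beads, without normalization or background subtraction. The deposited p-value is a detection p against background, per the file headers, from a test that is not stated. The authors' deposited normalized values are linear intensity, by a method not stated in headers or labels, and served as an alternative. The labels name amplification with µMACS SuperAmp and NuGEN Ovation Pico kits without saying whether both were used on every sample.

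Intensities of all 12 arrays were normalized with neqc of limma 3.58.1 in R 4.3.3 (background from the detection p, offset 16, quantile, log2). Of 46237 probes, 26748 were kept, each above background (detection p under 0.05) on 2 or more of the 8 group arrays, and 21699 of these have a symbol. The brightest probe stood for each of 14103 genes. Of all probes 10453 have no symbol and went unnamed. Symbols come from the platform annotation, updated through RefSeq. A model of 4 groups (residual df 4) gave contrasts within a tumour or genotype, and a model with additive terms for genotype and tumour (residual df 5) gave those over both. P-values were adjusted by Benjamini-Hochberg over 14103 genes. Code was tested on simulated data. Precision is limited by the number of arrays.

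All 10 members were named. Of each other pathway list, the 3 smallest p-values among genes called between tumours, or with none called the 2 largest changes above background on all 8 arrays, were named, with the 2 largest genotype changes. Members and lists were chosen with earlier results of these data known. Correlations of deviations between same-numbered replicates of different groups ran from -0.04 to 0.08 over 6 pairs of groups. The alternatives covered background, normalization, filter, probe choice, left-out arrays, replicate block, mixed arrays and BeadChip.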

Additional observations from a re-analysis of the deposited data

Results flagged for a closer look

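Gstt2 moved in opposite directions in the tumours on its brightest probe: the knockout difference in PyMT minus that in MCA was -1.68 ± 0.63 (SE, log2), with both KO_PyMT arrays below both WT_PyMT arrays and both KO_MCA arrays above both WT_MCA arrays. The family was chosen on the genotype contrast, so this difference was not tested, and the other Gstt2 probe did not show the opposite directions.

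Several members read higher on a mixed control array, which enters no comparison, than on all 8 group arrays. On the mixed control of PyMT macrophages these log2 levels were 6.16 for Gstt3, 6.94 for the brightest Gstp1 probe, 5.51 for the third Gstp1 probe, 6.14 and 5.76 for the brightest and other Mgst1 probes, 4.54 for Mgst2, and 5.68 for the brightest Mgst3 probe. On the first mixed control of MCA macrophages they were 4.99 for the third Gstp1 probe, 4.52 for Mgst2 and 4.93 for the other Mgst3 probe. The labels do not say what was mixed. Groups of 2 arrays are too small for a check of single outlying arrays.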

How the results depend on the processing

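Members called between tumours stayed at 0 in all 19 settings in wild type, 21 in knockout and 19 over both genotypes. Genes called over the whole array ran from 0 to 15 in wild type (3 as reported), 0 to 145 in knockout (11), 3 to 78 over both (23), and, between genotypes, 0 to 108 in PyMT, 0 in MCA and 0 to 2 over both (0 in each). Without KO_PyMT replicate 1 or 2 the knockout count was 145 or 77 and the PyMT genotype count 108 or 33, without either KO_MCA replicate the knockout count was 1 and the count over both genotypes 8, and without WT_MCA replicate 1 the wild-type count was 15. The choice of the family fixed the sign of the Gstt1 and Gstt3 genotype differences, and their size depended on the background correction. Gstt3 in PyMT was 0.47 with no background correction, 0.64 with normexp without the detection p and 0.44 in the authors' values, and 1.02 to 1.77 with an array left out. Gstt3 in MCA was 0.30, 0.40 and 0.30, and 0.48 to 1.27 with an array left out. Gstt3 over both tumours was 0.38, 0.52 and 0.37, and 0.93 to 1.34 with an array left out. Gstt1 in MCA was 0.34, 0.48 and 0.36, with 1.26 under median scaling and 1.00 to 1.25 with an array left out. Gstt1 over both tumours was 0.21 with no background correction and 0.23 in the authors' values, and 0.47 to 0.76 with an array left out. Gstt1 in PyMT was 0.02 to 0.21 with an array left out.

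Other genotype differences in PyMT ran from 0.29 to 1.27 for Mgst3 and from 0.69 to 1.32 for Gsto1. PyMT minus MCA in wild type ran from -1.20 to -0.29 for Mgst3 and from 0.18 to 0.81 for Mgst1, and in knockout from -1.33 to -0.39 for Gstt1. Among small PyMT minus MCA differences some changed sign, and the cause was not tested. Gstt1 in wild type was 0.15 with BeadChip as a block, and Gstt3 in knockout ran from -0.48 to 0.27. In wild type Gstm1 was -0.059 under median scaling, -0.053 as the mean of probes and -0.22 to 0.39 with an array left out. In knockout Gstm1 was -0.15 to 0.40 with an array left out, and Gstp1 was -0.18 under median scaling. Also in knockout, Mgst1 was 0.14 as the mean of probes, 0.10 with the repeat array in place of its partner, 0.22 with BeadChip as a block or within the BeadChip, and -0.17 to 0.14 with an array left out. Mgst3 was 0.033 with the repeat array in place of its partner, 0.076 with BeadChip as a block or within the BeadChip, and -0.32 to 0.085 with an array left out. Over both genotypes Gstt2 was 0.00016 with BeadChip as a block and -0.46 to 0.28 with an array left out. Gstm1 was -0.021 under median scaling and -0.014 to 0.23 with an array left out, and Gstp1 was 0.12 as the mean of probes and 0.084 with BeadChip as a block. Gsto1 in knockout was positive in all 21 settings, from 0.62 to 1.38. The replicate numbers do not pair the samples. With a replicate block, 0 members were called between tumours, the differences kept their values (Gsto1 in knockout 1.03), and genes called in knockout went from 11 to 4.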
